A study of Homo sapiens with 4 samples.

Results

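The unfolded protein response and the chaperones of the endoplasmic reticulum (ER) were followed through 34 genes in iMGL, cells resembling microglia that were differentiated from WTC11, an established line of human induced pluripotent stem cells. The 34 genes, of 35605 in the summed table, were chosen by their known roles, with the S1KO against WT fold changes of these same libraries already in view. Counts of members that differ between the genotypes are therefore a description of the chosen genes, and nothing is read from them beyond that. The members fall into 3 roles: 4 sensors and transducers, 24 chaperone and ER-associated degradation (ERAD) targets of XBP1 and ATF6, and 6 genes of the ATF4-CHOP arm. S1KO libraries came from cells edited to lack SHIP1, the lipid phosphatase encoded by INPP5D, and WT libraries from control cells of the same line; each genotype had 2 libraries, no treatment is given, and all 4 are poly-A-selected bulk RNA-seq. The design text names 2 clones per genotype but no label ties a library to a clone, so the spread within a genotype is that between 2 libraries and may be technical or clonal.

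When unfolded proteins build up in the ER, the membrane sensors IRE1 (gene ERN1), PERK (gene EIF2AK3) and ATF6 start separate signals. IRE1 cuts a short stretch out of the XBP1 mRNA, which shifts the reading frame and gives the active transcription factor XBP1s. ATF6 is cleaved to a transcription factor, and both factors raise chaperones, disulfide isomerases and the machinery that sends misfolded proteins back to the cytosol for degradation. PERK phosphorylates eIF2 alpha, which slows translation and favours ATF4, whose targets include CHOP (gene DDIT3) and enzymes of amino acid supply. Macrophages and microglia secrete and display many glycoproteins, and their ER folds these.

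Each library held 21516813 to 25927881 estimated counts. INPP5D had 81.0 and 97.6 CPM (estimated counts relative to a library total scaled by edgeR's TMM method) in S1KO libraries, against 355.6 and 440.9 CPM in WT libraries, a log2 fold change of -2.16 (SE 0.21, edgeR adjusted p 0.0185). Microglia markers were present in all libraries, with 11 of 12 above 1 CPM in each. Their sum was lower in S1KO libraries, at 2660 and 2697 CPM, against 3606 and 4162 CPM in WT libraries. For 7 of the 12 both S1KO values were below both WT values, beside 25.8% of all genes tested, and for none were they above. The part of these markers' cells in the values of the 34 genes was not tested. Mitochondrial transcripts took 52.5% and 39.4% of counts in S1KO libraries, against 14.3% and 19.0% in WT libraries. WT 1 stood apart: 12 markers of mesenchymal cells summed to 15.7 and 31.5 CPM in S1KO libraries, against 3748 CPM in WT 1 and 10.2 CPM in WT 2, and all 12 were highest in WT 1. Plasma cell markers, from another secretory cell, summed to 2.29 and 5.19 CPM in S1KO libraries, against 16.4 CPM in WT 1 and 3.36 CPM in WT 2. Most of the WT 1 sum was a single gene, SDC1, at 12.4 CPM. JCHAIN did not follow it, at 2.02 and 4.61 CPM in S1KO libraries, against 3.04 and 3.03 CPM in WT libraries, and IGHM had no counts. MZB1 had 0 and 0.442 CPM in S1KO libraries, against 0.912 CPM in WT 1 and 0.227 CPM in WT 2. The part of plasma cells in these values was not tested. Pluripotency markers summed to 14.6 and 15.1 CPM in S1KO libraries, against 5.66 and 7.05 CPM in WT libraries. Results are therefore also given for S1KO against WT 2 alone, that is, without WT 1. With the mitochondrially encoded genes left out before scaling, edgeR gave the same median over the members, -0.75, and again called 1 member. This fit bears on scaling only, and the part of cell or RNA quality was not tested.

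The stretch that IRE1 removes is the sequence on which the XBP1 readout turns. It lies on chromosome 22 at 28796124 to 28796149 (GRCh38, minus strand), inside the coding part of XBP1 in the transcript XBP1-201, and is absent from XBP1-207. Both are shown on the transcript strand from the GENCODE 29 transcripts, with the 26 bases in capitals and 24 bases of flank on either side. The letters allow 7 equivalent placements of the gap.
XBP1-201: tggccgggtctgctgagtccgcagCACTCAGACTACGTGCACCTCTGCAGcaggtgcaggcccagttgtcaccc
XBP1-207: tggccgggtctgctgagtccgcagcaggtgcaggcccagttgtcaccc

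Across the 34 genes the S1KO libraries mostly held less RNA than the WT libraries. The 34 genes together had 2073 and 2256 CPM in S1KO libraries, against 4041 and 3703 CPM in WT libraries. As a share of all counts outside the mitochondrial genome they took 0.285% and 0.356% in S1KO libraries, against 0.617% and 0.556% in WT libraries. In bulk RNA, fewer cells that express a gene and less of its RNA per cell cannot be told apart. Of the 33 genes that passed the low-count filter (TRIB3 did not), 32 had a negative log2 fold change, with a median of -0.75, beside -0.02 over all 15388 genes tested. The S1KO values did not overlap the WT values and were lower for 29 of the 33 members, beside 25.8% of all genes tested, and for no member were they higher.

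edgeR's quasi-likelihood test over all genes called 1 member, XBP1, lower in S1KO libraries at an adjusted p under 0.05, beside 0.149% of all genes called lower. Before adjustment 23 of the 33 had p under 0.05 and were lower, beside 9.19% of all genes. DESeq2 called 12 members lower (XBP1, HSPA5, CALR, PDIA3, DNAJB11, DNAJC3, SDF2L1, SEL1L, HERPUD1, SYVN1, DERL1 and ASNS), beside 3.35% of all genes. limma on log2(TPM + 1) called 26 lower, beside 18.0% of all genes. The mitochondrial transcripts share the denominator of TPM, and the median of all genes tested was -0.78 on log2(TPM + 1). It was -0.08 with TPM rescaled without the mitochondrially encoded genes. Single genes did not all shift alike between the edgeR and TPM scales. Against WT 1 alone edgeR called 20 of the 34 lower, beside 7.27% of genes, and against WT 2 alone 14, beside 6.4%. Both of these comparisons use the same S1KO libraries and take their spread from that pair alone. Over the 34 members the median log2 distance between libraries, without sign, was 0.46 within WT and 0.16 within S1KO. The calls against a single WT library therefore leave out the spread between WT libraries. TRIB3, which failed the filter of the main fit, is among the 20. The median of the 33 members was -0.72 against WT 1 alone and -0.59 against WT 2 alone. With either S1KO library left out, edgeR called no gene of the whole table, while the median stayed at -0.71 without S1KO 1 and -0.80 without S1KO 2.

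**Figure D1:**
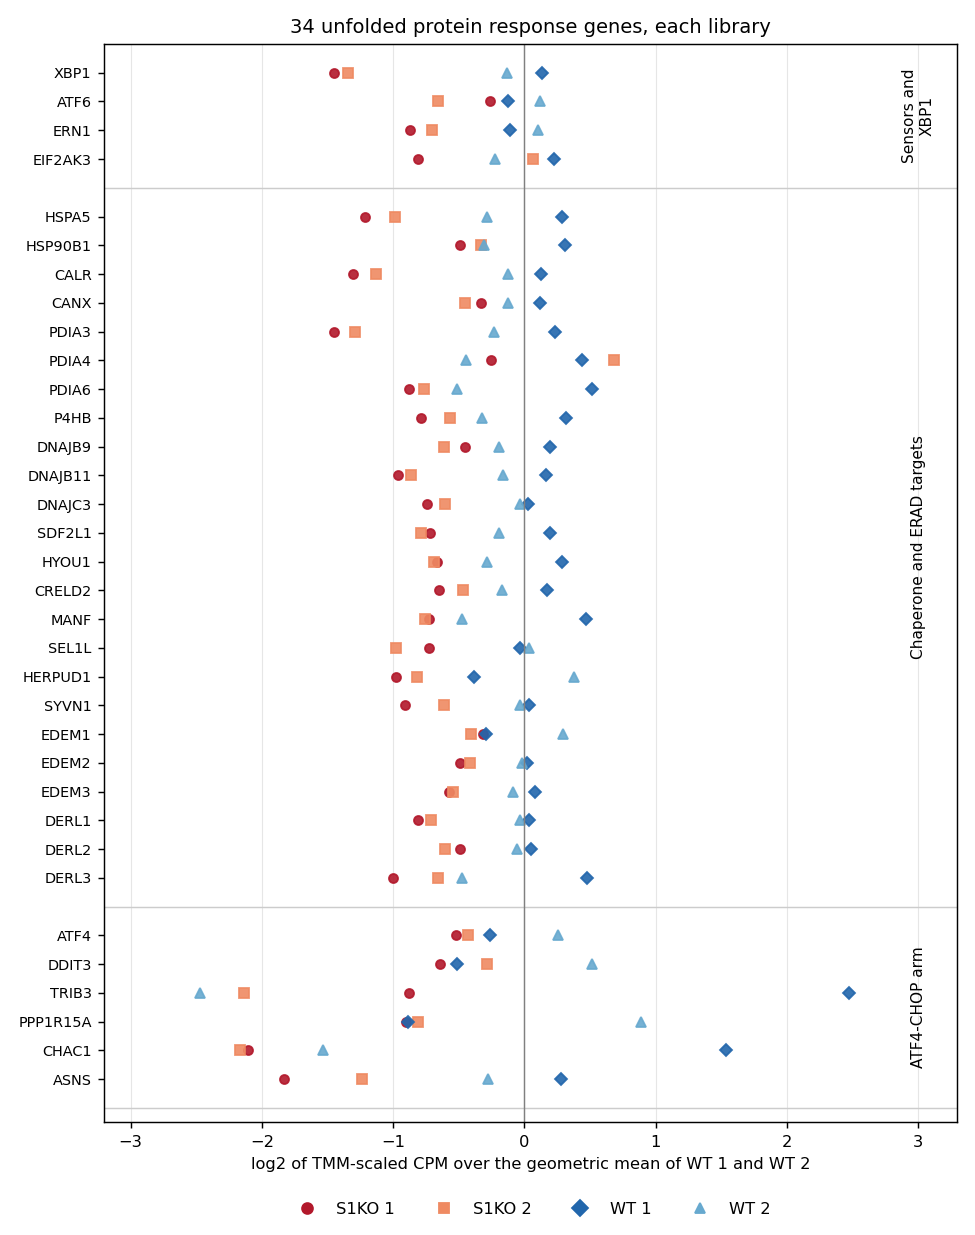
The log2 ratio of each library's TMM-scaled CPM to the geometric mean of WT 1 and WT 2 is plotted for the 34 genes, grouped by role, with a point for each library. S1KO points lie left of both WT points for most chaperone and ERAD targets, while TRIB3, CHAC1, PPP1R15A and DDIT3 differ as much between WT 1 and WT 2 as between genotypes.

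The 4 sensors and transducers had a median log2 fold change of -0.62. For 3 of them both S1KO values were below both WT values, beside 25.8% of all genes tested. XBP1, the transcription factor that IRE1 activates, was the member with the smallest adjusted p. The gene (ENSG00000100219, chromosome 22, 28794555 to 28800597, minus strand, GRCh38) had 14.0 and 15.1 CPM in S1KO libraries, against 42.0 and 34.9 CPM in WT libraries. Its S1KO values lay close together and well below both WT values. XBP1 fell, with a log2 fold change of -1.40 (SE 0.19, 95% interval -1.87 to -0.93, edgeR adjusted p 0.0432), and DESeq2 gave an adjusted p of 1.57e-06. The log2 fold change was -1.52 against WT 1 alone and -1.26 against WT 2 alone. The call was made in 9 of 15 alternative settings, and the adjusted p ranged over them between 1.57e-06 and 0.688.

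ERN1, which encodes IRE1, had 9.18 and 10.3 CPM in S1KO libraries, against 15.6 and 18.1 CPM in WT libraries, and its groups did not overlap. Its log2 fold change was -0.78 (SE 0.22, edgeR adjusted p 0.143). With an offset for effective transcript length it was 0.65 instead, since the counts were spread over transcripts of different length. The longest coding transcript (7895 bases) held 100.2 and 164.7 estimated counts in S1KO libraries, against 388.7 and 507.3 in WT libraries. A retained-intron transcript of 503 bases held 27.0 and 35.8 estimated counts in S1KO libraries, against 13.1 and 17.4 in WT libraries. The gene-level direction of ERN1 thus depended on whether length was counted.

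ATF6, the sensor that is itself cleaved to a transcription factor, had 16.3 and 12.4 CPM in S1KO libraries, against 18.0 and 21.3 CPM in WT libraries (log2 fold change -0.45, SE 0.23, edgeR adjusted p 0.344). EIF2AK3, which encodes PERK, was the scarcest sensor with 0.920 and 1.69 CPM in S1KO libraries, against 1.89 and 1.38 CPM in WT libraries. These rest on 13.7 and 35.9 estimated counts in S1KO libraries, against 52.8 and 43.3 in WT libraries. The EIF2AK3 groups overlapped, and its log2 fold change of -0.29 (SE 0.53, edgeR adjusted p 0.798) was smaller than its error.

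The transcripts of XBP1 did not all lie below their WT levels. Coding transcripts that keep the 26 bases had 8.58 and 10.4 CPM in S1KO libraries, against 34.3 and 19.3 CPM in WT libraries. The transcript without them, XBP1-207, had 3.62 and 2.33 CPM in S1KO libraries, against 2.48 and 0.975 CPM in WT libraries, so that the groups overlapped. Retained-intron transcripts had 1.82 and 2.32 CPM in S1KO libraries, against 5.24 and 14.5 CPM in WT libraries. For the spliced form S1KO 1 was thus above both WT libraries and S1KO 2 between them, while the unspliced and intron-retaining forms were lower in both S1KO libraries.

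As a share of all XBP1 estimated counts, the transcript without the 26 bases took 25.8% in S1KO 1 (95% Wilson interval 20.3% to 32.2%, of 208 counts) and 15.4% in S1KO 2 (11.9% to 19.8%, of 321 counts). It took 5.91% in WT 1 (4.7% to 7.4%, of 1175 counts) and 2.80% in WT 2 (1.97% to 3.95%, of 1092 counts). Neither S1KO interval met a WT interval. The means were 20.6% ± 7.35 in S1KO libraries and 4.35% ± 2.20 in WT libraries (SD, n = 2 each), a difference of 16.3 percentage points. An exact two-sided permutation test gave p = 0.333, the smallest that 2 libraries against 2 allow, so this test could not pass a threshold of 0.05. Of the coding counts alone the share was 29.7% and 18.2% in S1KO libraries, against 6.75% and 4.8% in WT libraries, which leaves out the 41.7% of XBP1 counts that lay in retained-intron transcripts in WT 2. The intervals cover counting error only, and kallisto divides fragments that fit several transcripts. XBP1-201 also reaches further at its 5′ end, the 26 bases starting at its position 570 while the same junction lies at position 545 of XBP1-207, so fragments there separate the 2 transcripts as well.

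**Figure D2:**
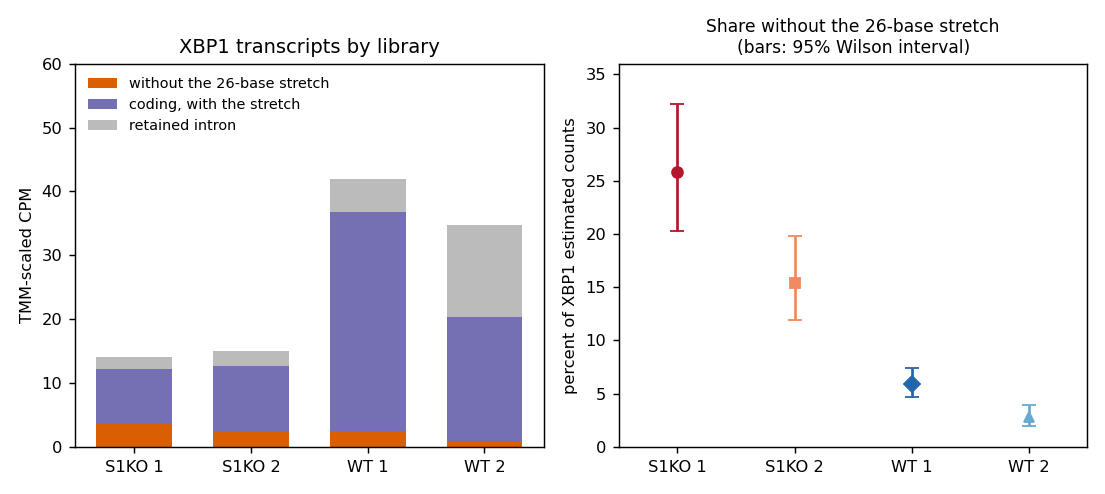
Left, TMM-scaled CPM of XBP1 transcripts in each library, stacked by form; right, the percent of XBP1 estimated counts in the transcript without the 26-base stretch, with 95% Wilson intervals. The S1KO bars are shorter, at 14.0 and 15.1 CPM in all, and their spliced shares of 25.8% and 15.4% lie above the WT shares of 5.91% and 2.80%.

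The 24 chaperone and ERAD targets summed to 1688 and 1842 CPM in S1KO libraries, against 3532 and 2923 CPM in WT libraries. For 23 of the 24 both S1KO values were below both WT values, beside 25.8% of all genes tested. The median log2 fold change was -0.73. edgeR called none of the 24 after adjustment over all genes. Before adjustment 19 had p under 0.05 and were lower, beside 9.19% of all genes. DESeq2 called 10 lower, beside 3.35% of all genes. WT 1 was above WT 2 for 21 of the 24, and the median was -0.78 against WT 1 alone and -0.49 against WT 2 alone. The distance from WT was therefore smaller when the library rich in mesenchymal markers was left out.

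Of these 24, the lectin and oxidoreductase pair that folds glycoproteins stood furthest from WT. PDIA3, the disulfide isomerase that works with calreticulin, had 126.3 and 141.3 CPM in S1KO libraries, against 405.4 and 293.5 CPM in WT libraries. Its log2 fold change was -1.38 (SE 0.22, edgeR adjusted p 0.0528), with -1.59 against WT 1 alone and -1.13 against WT 2 alone. These values mostly describe transcripts that the annotation does not class as coding. Such transcripts held 90.4% and 92.9% of PDIA3 counts in S1KO libraries, against 92.3% and 92.7% in WT libraries. CALR, the calcium-binding lectin chaperone calreticulin, had 289.4 and 326.1 CPM in S1KO libraries, against 779.6 and 653.0 CPM in WT libraries. Its log2 fold change was -1.22 (SE 0.20, edgeR adjusted p 0.0595; DESeq2 3.37e-08). Both genes lay just outside the edgeR threshold, and their S1KO values were below either WT value. CANX, the membrane-bound lectin calnexin, had 191.6 and 176.7 CPM in S1KO libraries, against 262.7 and 221.7 CPM in WT libraries, a log2 fold change of -0.40.

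HSPA5 encodes BiP, the main ER Hsp70, which also holds the sensors inactive. It had 131.6 and 153.4 CPM in S1KO libraries, against 371.3 and 249.6 CPM in WT libraries (log2 fold change -1.12, SE 0.24, edgeR adjusted p 0.092). DNAJB11, a J-domain partner of BiP, had 37.0 and 39.8 CPM in S1KO libraries, against 81.0 and 64.6 CPM in WT libraries (log2 fold change -0.92, SE 0.18, edgeR adjusted p 0.0836). The BiP partners and cofactors otherwise spanned -0.77 for SDF2L1 and -0.54 for DNAJB9, with DNAJC3 at -0.67 and the nucleotide exchange factor HYOU1 at -0.70. HSP90B1, the ER Hsp90 known as GRP94, had 239.3 and 267.5 CPM in S1KO libraries, against 416.9 and 271.6 CPM in WT libraries. Its S1KO 2 value was almost that of WT 2, and its log2 fold change was -0.71 against WT 1 alone and -0.10 against WT 2 alone. S1KO thus lay near WT 2 for GRP94 and further from it for BiP, whose value against WT 2 alone was -0.81; the difference between the genes was not tested.

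The other disulfide isomerases were less even. P4HB had 166.9 and 194.6 CPM in S1KO libraries, against 358.7 and 230.6 CPM in WT libraries, and PDIA6 had 23.95 and 25.94 CPM in S1KO libraries, against 62.9 and 30.8 CPM in WT libraries. WT 1 exceeded WT 2 by 0.64 for P4HB and 1.03 for PDIA6 on the log2 scale. PDIA4 was the 1 member with a positive log2 fold change (0.23, SE 0.47), at 3.62 and 6.92 CPM in S1KO libraries, against 5.87 and 3.18 CPM in WT libraries. Its groups overlapped, and it turned negative in 6 of 15 alternatives. CRELD2 and MANF, small secreted proteins induced by ER stress, had log2 fold changes of -0.57 and -0.82, and MANF was at -0.27 against WT 2 alone.

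The ERAD genes (SEL1L, HERPUD1, SYVN1, EDEM1, EDEM2, EDEM3, DERL1, DERL2 and DERL3) all had negative log2 fold changes, from -0.94 for HERPUD1 to -0.39 for EDEM1. SEL1L and SYVN1 encode the adaptor and the ubiquitin ligase HRD1 at the core of the retrotranslocation complex. SEL1L had 19.6 and 16.5 CPM in S1KO libraries, against 31.8 and 33.3 CPM in WT libraries (log2 fold change -0.85, SE 0.19, edgeR adjusted p 0.0952). SYVN1 had 33.0 and 40.5 CPM in S1KO libraries, against 63.3 and 60.3 CPM in WT libraries (log2 fold change -0.75, SE 0.18, edgeR adjusted p 0.103). For these 2 genes, and for the derlin DERL1 (-0.79 against WT 1 alone, -0.73 against WT 2 alone), the WT libraries nearly coincided. HERPUD1, which links ubiquitin ligases of the complex, had 179.4 and 201.1 CPM in S1KO libraries, against 271.6 and 460.7 CPM in WT libraries. It was 1 of 3 genes of this role, with EDEM1 and SEL1L, that were higher in WT 2 than in WT 1. DERL3 followed the opposite order, with 8.58 and 10.9 CPM in S1KO libraries, against 23.9 CPM in WT 1 and 12.3 CPM in WT 2.

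On the length-corrected TPM scale HERPUD1 and CALR reached the highest values of the 34 genes, with 94.5 to 745.9 TPM and 104.4 to 724.3 TPM over the 4 libraries. ATF4 followed with 113.1 to 395.8 TPM. EIF2AK3 was the lowest, with 0.119 to 1.26 TPM, and CHAC1, TRIB3 and EIF2AK3 were each below 1 TPM in 3 of the 4 libraries.

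The promoter sequences of the members were read for 3 known elements, in RefSeq windows (GRCh38.p14) from 250 bases before to 50 bases after the gene's start, on both strands. The ER stress response element (ERSE), which ATF6 binds with NF-Y, was taken as CCAAT and CCACG with 9 bases between. It was in the windows of 7 of 31 members, XBP1, HSPA5, HSP90B1, CALR, CANX, PDIA6 and CRELD2, beside 0.0916% of 27305 genes with a window. ERSE-II, taken as ATTGG and CCACG with 1 base between, was in SDF2L1, HYOU1 and HERPUD1, beside 0.0696% of genes. The CARE element that ATF4 binds, taken as TGATG, 1 base and AA, was in HERPUD1, CHAC1 and ASNS, beside 4.46% of genes. The following sites are on the gene's strand with 5 bases on either side and the fixed letters in capitals, to show the elements in a transducer, in chaperones, in an ERAD gene and in an ATF4 target. A site read on the other strand is given as its reverse complement, so that CGTGG stands for CCACG and ATTGG for CCAAT.
XBP1 (ERSE, chr22:28800603-28800621, minus strand): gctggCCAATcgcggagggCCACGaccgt
HSPA5 (ERSE, chr9:125241391-125241409, minus strand): cttcaCCAATcggcggcctCCACGacggg
CALR (ERSE, chr19:12938384-12938402, plus strand): ccacgCGTGGtcgaccatcATTGGtcggt
HERPUD1 (ERSE-II, chr16:56932025-56932035, plus strand): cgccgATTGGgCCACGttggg
ASNS (CARE, chr7:97872469-97872476, minus strand): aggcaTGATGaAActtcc

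These matches describe letters, not bound sites. The members were chosen by their known roles, many of them as targets of XBP1 and ATF6. Their larger share of matches than that of all genes follows from this choice and is not a finding. The 6 chaperone and ERAD targets with an ERSE had a median log2 fold change of -0.74, and the 15 with a window and no such match had -0.70. The 15 include the ERSE-II holders SDF2L1, HYOU1 and HERPUD1, and the difference was not tested.

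The ATF4-CHOP arm did not follow the chaperones library by library. ATF4, the transcription factor whose translation PERK favours, had 261.0 and 278.3 CPM in S1KO libraries, against 312.7 CPM in WT 1 and 448.3 CPM in WT 2 (log2 fold change -0.50, SE 0.22, edgeR adjusted p 0.291). DDIT3, which encodes CHOP, had 22.4 and 28.8 CPM in S1KO libraries, against 24.6 CPM in WT 1 and 50.1 CPM in WT 2. PPP1R15A, which encodes GADD34 and reverses the phosphorylation of eIF2 alpha, had 54.4 and 57.8 CPM in S1KO libraries, against 54.9 CPM in WT 1 and 188.0 CPM in WT 2. For DDIT3 and PPP1R15A the S1KO libraries were at the level of WT 1 and only WT 2 was higher. Their log2 fold changes were 0.06 and 0.04 against WT 1 alone, and -0.96 and -1.74 against WT 2 alone.

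CHAC1 and TRIB3 had the reverse arrangement. CHAC1, a glutathione-degrading enzyme, had 0.539 and 0.517 CPM in S1KO libraries, against 6.72 CPM in WT 1 and 0.798 CPM in WT 2. Its log2 fold change of -2.82 (SE 1.0, edgeR adjusted p 0.207) was -0.59 against WT 2 alone. TRIB3, a pseudokinase that CHOP induces, had 10 and 6 counts in S1KO libraries, against 192 counts in WT 1 and 7 in WT 2. Both genes were thus high in WT 1 only, the library with the mesenchymal markers, and the part of mesenchymal cells in these values was not tested.

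ASNS, asparagine synthetase, was the member of this arm below both WT libraries by the clearest margin. It had 5.89 and 8.87 CPM in S1KO libraries, against 25.4 and 17.3 CPM in WT libraries. Its log2 fold change was -1.53 (SE 0.31, edgeR adjusted p 0.086; DESeq2 0.00112), with -1.77 against WT 1 alone and -1.22 against WT 2 alone. Within WT the median distance between the libraries, without sign, was 1.40 on the log2 scale over the 6 genes of this arm, against 0.39 over the 24 chaperone and ERAD targets.

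**Figure D3:**
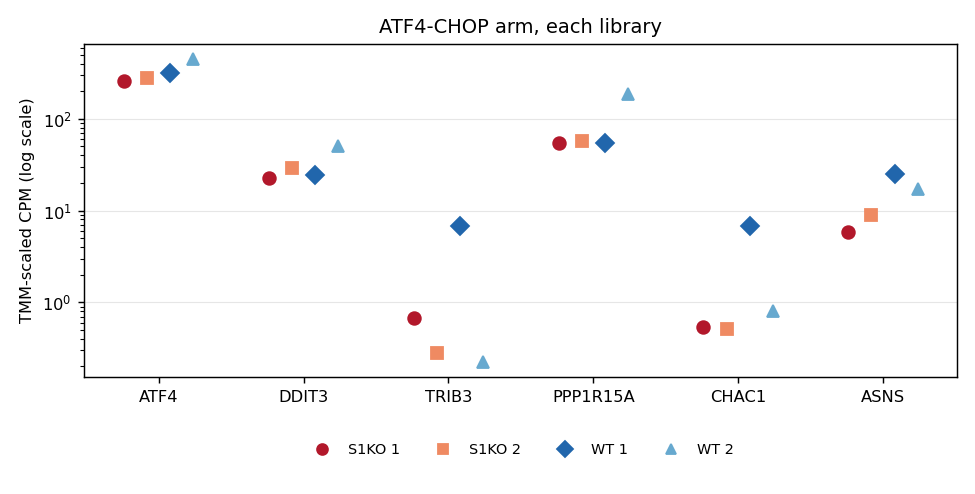
TMM-scaled CPM (log axis) of the 6 genes of the ATF4-CHOP arm, with a point for each library. DDIT3 and PPP1R15A are high in WT 2 alone, at 50.1 and 188.0 CPM, TRIB3 and CHAC1 in WT 1 alone, and ASNS has both S1KO points below both WT points.

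Genes around the members were read from 8 further lists, none of which edgeR called higher in any gene. Proteins that carry chains into the ER and cut their signal peptides (18 genes) had a median log2 fold change of -0.48, and 14 had both S1KO libraries below both WT libraries, beside 25.8% of all genes tested. The signal peptidase subunit SPCS3 had 34.5 and 40.8 CPM in S1KO libraries, against 74.4 and 67.2 CPM in WT libraries (log2 fold change -0.91), and SPCS2 was at -0.80. N-glycosylation genes (16) had a median of -0.63, with 13 below, and the smallest p belonged to the oligosaccharyltransferase subunits RPN1 (-0.97) and DDOST (-0.91). The further ER oxidoreductases and folding factors (17) had a median of -0.71, with 13 below, and the smallest p belonged to TXNDC5 (-1.72) and ERP44 (-0.79). edgeR called 0 genes of these lists after adjustment. Before adjustment 12, 9 and 10 of the 3 lists had p under 0.05 and were lower, beside 9.19% of all genes, and DESeq2 called 5, 5 and 7 lower, beside 3.35%.

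The other lists had medians between -0.25 and 0.03, and differences between lists were not tested. Their counts of genes below stand beside 25.8% of all genes tested with both S1KO libraries below both WT libraries. Further ERAD genes (18) had a median of -0.20 with 10 below, the smallest p being those of SELENOK (-0.96) and SELENOS (-0.72). The COPII coat and its cargo receptors (16), which carry folded proteins out of the ER, had a median of -0.13 with 8 below. LMAN1 (-0.94) and SURF4 (-0.78), both cargo receptors, had the smallest p of that list. Regulators of the sensors and of eIF2 alpha (18) had a median of -0.04, the smallest p being those of EIF2AK4 (0.65), the amino-acid-sensing kinase GCN2, and PPP1R15B (-0.72). Chaperones of the cytosol and mitochondria (16) had a median of 0.03, with 2 below. HSPA8, the constitutive cytosolic Hsp70, had 265.0 and 166.8 CPM in S1KO libraries, against 115.8 and 79.5 CPM in WT libraries (log2 fold change 1.14, SE 0.29, edgeR adjusted p 0.115). It lay on the other side of WT from its ER relative HSPA5. HSPA1A (-0.71) shares reads with its near-identical copy HSPA1B, so its value is uncertain.

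Further targets of ATF4 in amino acid supply and stress (32 genes) had a median of -0.25, and 8 had both S1KO libraries below both WT libraries, a share near the 25.8% of all genes tested. SLC7A5, the light chain of the large neutral amino acid transporter, was the 1 gene of the 8 lists that edgeR called. It had 68.7 and 73.7 CPM in S1KO libraries, against 172.3 and 164.5 CPM in WT libraries, and fell, with a log2 fold change of -1.24 (SE 0.16, edgeR adjusted p 0.0407). The glutamine transporter SLC1A5 had 40.8 and 41.2 CPM in S1KO libraries, against 77.0 and 80.4 CPM in WT libraries (log2 fold change -0.94, edgeR adjusted p 0.0595). Both transporters had nearly equal WT values, unlike most genes of the ATF4-CHOP arm. The median of this list was -0.43 against WT 1 alone and 0.20 against WT 2 alone, so its direction rested on WT 1.

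**Figure D4:**
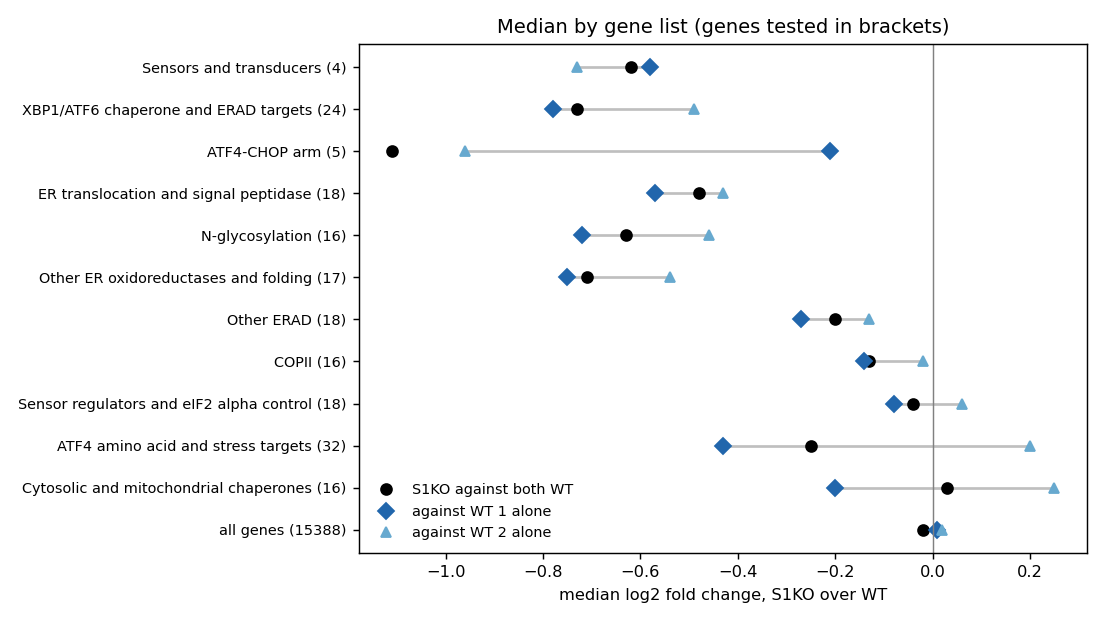
Median log2 fold change, S1KO over WT, for the 3 roles of the members, 8 further lists and all genes tested, from the comparison with both WT libraries and with each WT library alone. ER folding, translocation and glycosylation lists lie between -0.43 and -0.78 in all 3 comparisons, while the ATF4 amino acid list, the sensor regulators and the cytosolic chaperones change sign between WT 1 and WT 2.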

How the data were processed

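Per the labels' protocols, poly-A RNA of 4 iMGL libraries was read from both ends over 150 bp. The submitters' processing notes name kallisto and hg38, and neither the kallisto version nor the transcript set is given in the sources used here. Per the file headers, the authors deposited for each transcript and library an estimated count and a TPM, a level per length. Transcripts were summed to genes with GENCODE 29: 169797 of 188753 matched by identifier and 15521 by symbol, and 3435 were left out. Estimated counts were rounded, filtered with filterByExpr (15388 of 35605 genes kept), scaled by TMM (factors 0.653 and 0.957 in S1KO libraries, 1.313 and 1.217 in WT libraries) and tested with edgeR 4.0.16 (glmQLFit, glmQLFTest, two-sided, genotype as the only term, Benjamini-Hochberg at 0.05) in R 4.3.3. The main edgeR fit, the DESeq2 test and a limma fit were also run on simulated counts with known changes. The other alternatives were not run on simulated counts.

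The members and lists were chosen with earlier results of these data known. Given with the value in every library are INPP5D, XBP1, HSPA5, ATF4 and DDIT3, members called, and the 4 of smallest p in each role. Of the further lists, called genes and up to 2 of smallest p are named, most of them by fold change only. Other members given with values (HSP90B1, CANX, P4HB, PDIA6, PDIA4, SEL1L, SYVN1, HERPUD1, DERL3 and TRIB3) were chosen after their values were seen. The lists of markers for mast, granulocytic, erythroid and neural cells summed to at most 13.1 CPM in any library.

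The 15 alternatives included no filter, and a stricter filter of at least 1 CPM in 2 libraries together with a mean TPM of at least 1. Others were the test by DESeq2 1.42.0, edgeR with size factors from DESeq2, and an effective length offset. The replicate number was used as a block, and each library was omitted in turn. limma 3.58.1 was run on log2(TPM + 1), on log2(TPM + 0.1) and on TPM rescaled without mitochondrial genes. The remaining ones were counts without mitochondrial genes and protein-coding transcripts only. With a library left out, the lone library of its genotype is assumed to vary like the others.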

Additional observations from a re-analysis of the deposited data

How the results depend on the processing

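edgeR called 145 genes and 1 member. The count of genes was 1161 with DESeq2, 1362 with no filter, 224 with the stricter filter, 21 with protein-coding transcripts only, and 2896 and 2642 with limma on log2(TPM + 1) and log2(TPM + 0.1). The count of members was 12 with DESeq2, 14 with no filter, 3 with the stricter filter (XBP1, CALR and PDIA3), 0 with the effective length offset, 0 with protein-coding transcripts only, 26 with limma on either TPM scale and 0 with limma on TPM rescaled without mitochondrial genes. Leaving out each library in turn gave 0 to 2140 genes and 0 to 19 of the 33 members (20 of 34 with TRIB3, which is tested without WT 2): neither fit without an S1KO library called any gene, and the fit without WT 2 called the most. The median over the members was -1.57 and -1.71 with limma on log2(TPM + 1) and log2(TPM + 0.1), scales on which the median of all genes was -0.78 and -0.97, and -0.80 to -0.59 with a library left out. The difference in the spliced XBP1 share stayed between 11.1 and 21.5 percentage points with a library left out, and was 14.2 points on TPM and 18.2 points over coding transcripts. XBP1 kept its direction in all 15 alternatives but missed the threshold with the length offset (adjusted p 0.051), limma on rescaled TPM (0.0813), protein-coding transcripts only (0.169), without S1KO 1 (0.688) and without S1KO 2 (0.422). Signs turned for EIF2AK3 without S1KO 1 (0.04), for DDIT3 (0.06) and PPP1R15A (0.04) without WT 2 (-0.96 and -1.74 without WT 1), for ERN1 with the length offset (0.65) and on rescaled TPM (0.53), and for PDIA4 without S1KO 2 (-0.33), without WT 2 (-0.14; 0.74 without WT 1), with the length offset (-0.37), on log2(TPM + 1) (-1.17), on log2(TPM + 0.1) (-1.44) and on rescaled TPM (-0.50). The cause was not tested.

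With the replicate number as a block edgeR called 0 genes and 0 members (2891 genes had an unadjusted p under 0.05), and XBP1 stood at -1.39 with an adjusted p of 0.0805. Deviations of libraries with the same number correlated at 0.025, so the numbers are not shown to pair libraries. Depth limits EIF2AK3, CHAC1 and TRIB3, each below 1 TPM in 3 libraries.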

Other observations

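Several members differed in which kind of transcript took their counts. Retained-intron transcripts held 12.9% and 15.4% of XBP1 counts in S1KO libraries, against 12.5% in WT 1 and 41.7% in WT 2. For HERPUD1 they held 13.7% and 13.2% in S1KO libraries, against 14.8% in WT 1 and 29.9% in WT 2. For PDIA4 they held 17.0% and 27.4% in S1KO libraries, against 34.7% in WT 1 and 65.4% in WT 2. WT 2 was the highest library for these 3 genes, which were chosen after their values were seen. Over the 34 members the share was 6.67% and 7.45% in S1KO libraries, against 5.60% and 9.34% in WT libraries. Over all protein-coding genes it was 3.52% and 6.32% in S1KO libraries, against 8.88% and 9.62% in WT libraries. Mitochondrial transcripts took 52.5% and 39.4% of all counts in S1KO libraries, against 14.3% and 19.0% in WT libraries. Their part in the share over all protein-coding genes was not tested.

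PDIA3 counts lay almost wholly in transcripts that the annotation does not class as coding, with 90.4% and 92.9% in S1KO libraries, against 92.3% and 92.7% in WT libraries. The gene-level fold change of PDIA3 therefore describes those transcripts. No test was made of these shares.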
